A study of Mus musculus with 12 samples.

Results

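The genes described here are the transcriptional co-activators YAP (Yap1) and TAZ (Wwtr1), their DNA-binding partners Tead1, Tead2, Tead3 and Tead4, the Hippo pathway components Lats2, Amotl2 and Ajuba, and Ankrd1, a target gene of YAP and TAZ. They were chosen by gene symbol for their place in the pathway and are 10 of the 55401 genes in the deposited table. The test covered the 12016 genes with an FPKM of 1 or more in 3 or more of the 12 libraries, and all 10 genes were among them. FPKM counts fragments per kilobase of exon, scaled to the depth of the library, so that levels of different genes can be set side by side. The cells were bone marrow mesenchymal stem cells (MSCs) of C57BL/6 mice bought from a commercial supplier, and 4 groups of 3 mRNA libraries were sequenced. The control MSCs were untreated. MSCs of the TGF-β1 group received transforming growth factor beta 1 at 5 ng/mL, which induces MSCs to become myofibroblasts. The other 2 groups received the same dose of TGF-β1 together with the culture supernatant of monocytic (TGF-β1/M-MDSC sup) or granulocytic (TGF-β1/G-MDSC sup) myeloid-derived suppressor cells, which had been grown from mouse bone marrow with GM-CSF and IL-6 and sorted. None of the 12 libraries received supernatant without TGF-β1, or TGF-β1 with medium that had held no cells. The study names different base media for MSCs and MDSCs, so supernatant and its medium cannot be told apart here. Both supernatant comparisons rest on the same TGF-β1 libraries. The sources used here do not say whether the 3 libraries of a group came from separate cultures, and the p-values then measure only the spread between these libraries.

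In the Hippo pathway, the kinases MST1 and MST2 activate LATS1 and LATS2, which phosphorylate YAP and TAZ and thereby keep them out of the nucleus. Angiomotins such as AMOTL2 bind YAP and TAZ, and the LIM protein AJUBA inhibits LATS kinases. When cells are spread, stretched or on a stiff surface, YAP and TAZ enter the nucleus, where TEAD proteins tether them to DNA. LATS2, AMOTL2 and ANKRD1 are encoded by genes that YAP and TAZ themselves can switch on, and YAP and TAZ are known in fibroblasts for their part in myofibroblast activation. This regulation acts largely on the location and phosphorylation of the proteins, which mRNA counts do not measure.

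On GRCm38, Yap1 (ENSMUSG00000053110) lies at chr9:7931999-8004596 on the minus strand and Wwtr1 (ENSMUSG00000027803) at chr3:57455649-57575910 on the minus strand. The TEAD genes are spread over 3 chromosomes, with Tead1 at chr7:112679318-112906807 (plus), Tead2 at chr7:45215753-45233644 (plus), Tead3 at chr17:28331671-28350663 (minus) and Tead4 at chr6:128224288-128300823 (minus). Lats2 lies at chr14:57689662-57746123 (minus) and Ajuba on the same chromosome at chr14:54567472-54577558 (minus). Amotl2 is at chr9:102716672-102733418 (plus) and Ankrd1 at chr19:36111961-36119910 (minus).

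The libraries held from 73977669 to 84565450 counts. The labelled cell type was checked against its markers. The lowest FPKM of the MSC surface marker genes Itgb1 and Cd44 in any library was 247 and 38.5, both in control MSCs, whereas the negative markers Kit and Pecam1 together stayed at or below 0.218. The summed FPKM of 7 MSC markers was 581 to 598 in control MSCs, 499 to 512 with TGF-β1, 553 to 584 in the TGF-β1/M-MDSC sup group and 532 to 557 in the TGF-β1/G-MDSC sup group. Of these markers, 6 reached an FPKM of 1 and Eng did not. They did not move together: Ly6a (Sca-1) was 241 to 251.1 in control MSCs and 13.0 to 18.8 with TGF-β1, Pdgfra was 13.2 to 15.5 and 4.58 to 5.33, and Thy1 was 3.94 to 5.27 and 2.03 to 2.42, whereas Itgb1 was 247 to 263 and 381 to 388. Of 13 myeloid genes, 7 reached an FPKM of 1 in any library, and their summed FPKM was 28.9 to 30.6 in control MSCs, 15.6 to 17.0 with TGF-β1, 22.8 to 28.2 in the TGF-β1/M-MDSC sup group and 28.4 to 30.8 in the TGF-β1/G-MDSC sup group. Most of that sum was Cd14, and the defining leukocyte genes Ptprc and Itgam did not exceed an FPKM of 0.0157 and 0.0927, and Mpo and Elane were listed at 0. Myeloid genes did not move together either. Ptprc, Itgam, Adgre1, S100a8, Lyz2 and S100a9 had their highest levels in the supernatant groups, and Cd68, Ly6g and Ly6c2 in control MSCs. Itgam was listed at 0 in control MSCs and reached 0.00106 with TGF-β1. It reached 0.0927 in the TGF-β1/M-MDSC sup group and was 0.0297 to 0.0872 in the TGF-β1/G-MDSC sup group. Lyz2 was at most 0.191 in control and 0.0940 in TGF-β1 libraries, 0.651 to 2.29 in the TGF-β1/M-MDSC sup group and 1.56 to 2.11 in the TGF-β1/G-MDSC sup group, and S100a9 was listed at 0 in all control and TGF-β1 libraries and reached 0.980 and 3.40 in the supernatant groups. Ly6g was 1.74 to 1.89 in control MSCs and at most 0.199 in the other groups. The summed FPKM of 4 endothelial, 4 epithelial and 8 striated muscle genes reached at most 0.589, 1.01 and 3.35. The part of these markers in the results was not tested. In bulk samples, fewer cells of a type and less RNA per cell cannot be told apart.

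The promoters of these genes are shown first because most of them hold the letters that TEAD proteins recognise. RefSeq promoters on GRCm38.p6, each of 250 bases before and 50 bases after a start site, were found for 8 of the 10 genes, 12 promoters in all (none was found for Tead1 and Tead4). Both strands were searched for GGAATG, the core of the TEAD motif, which reads CATTCC on the other strand. It was present in 9 of 12 promoters and in 7 of 8 genes, that is in all but Tead2, against 14.7% of all 32851 RefSeq promoters and 16.6% of the 27025 genes they belong to. The 2 promoters of Wwtr1 overlap and share the same match, and the promoters of Tead3 also overlap each other in part. The AP-1 motif TGANTCA was found in 0 of the 12 promoters and in 7.81% of all promoters. The SMAD motif CAGACA was found in Ankrd1 and Ajuba, against 21% of all promoters, and the CArG box of SRF was found in 0 against 1.63%. None of the SMAD matches overlapped a TEAD match, and a match is a string of letters and not a measured binding site. The 4 promoters printed here hold a match and belong to genes without overlap between the control and TGF-β1 libraries, with the TEAD motif in capitals and each sequence on the strand of its gene, 5′ to 3′. They are the minus strand of chr19:36119795-36120094 for Ankrd1, the plus strand of chr9:102717554-102717853 for Amotl2, and the minus strands of chr14:54577612-54577911 for Ajuba and chr9:8004547-8004846 for Yap1.
Ankrd1: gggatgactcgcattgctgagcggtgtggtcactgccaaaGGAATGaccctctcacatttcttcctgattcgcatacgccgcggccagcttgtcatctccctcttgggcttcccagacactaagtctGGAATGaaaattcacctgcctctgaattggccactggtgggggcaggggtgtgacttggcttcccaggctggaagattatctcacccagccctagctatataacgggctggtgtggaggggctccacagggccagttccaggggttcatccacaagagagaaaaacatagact
Amotl2: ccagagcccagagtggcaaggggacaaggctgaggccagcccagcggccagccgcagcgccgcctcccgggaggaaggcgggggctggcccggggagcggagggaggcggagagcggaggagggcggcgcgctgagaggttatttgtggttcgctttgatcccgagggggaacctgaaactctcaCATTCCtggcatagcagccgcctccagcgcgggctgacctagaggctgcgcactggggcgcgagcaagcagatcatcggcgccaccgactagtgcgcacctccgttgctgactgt
Ajuba: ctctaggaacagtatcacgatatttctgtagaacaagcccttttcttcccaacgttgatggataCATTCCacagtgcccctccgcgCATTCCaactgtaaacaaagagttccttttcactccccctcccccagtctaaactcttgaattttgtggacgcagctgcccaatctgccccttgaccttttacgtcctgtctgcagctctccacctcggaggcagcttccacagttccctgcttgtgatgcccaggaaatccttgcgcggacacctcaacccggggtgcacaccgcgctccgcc
Yap1: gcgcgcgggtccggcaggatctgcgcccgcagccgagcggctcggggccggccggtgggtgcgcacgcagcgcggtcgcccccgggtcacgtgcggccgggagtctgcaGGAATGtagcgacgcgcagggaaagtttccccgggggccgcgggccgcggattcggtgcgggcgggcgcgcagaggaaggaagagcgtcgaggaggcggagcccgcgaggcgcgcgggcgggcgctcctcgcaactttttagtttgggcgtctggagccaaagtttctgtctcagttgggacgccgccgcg

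The matches lie upstream of the start site, at -210 and -123 in Ankrd1, at -65 in Amotl2, at -186 and -164 in Ajuba and at -141 in Yap1. These 4 genes did not move in the same direction, since Yap1, Amotl2 and Ajuba fell with TGF-β1, whereas the Ankrd1 level was higher.

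**Figure D1:**
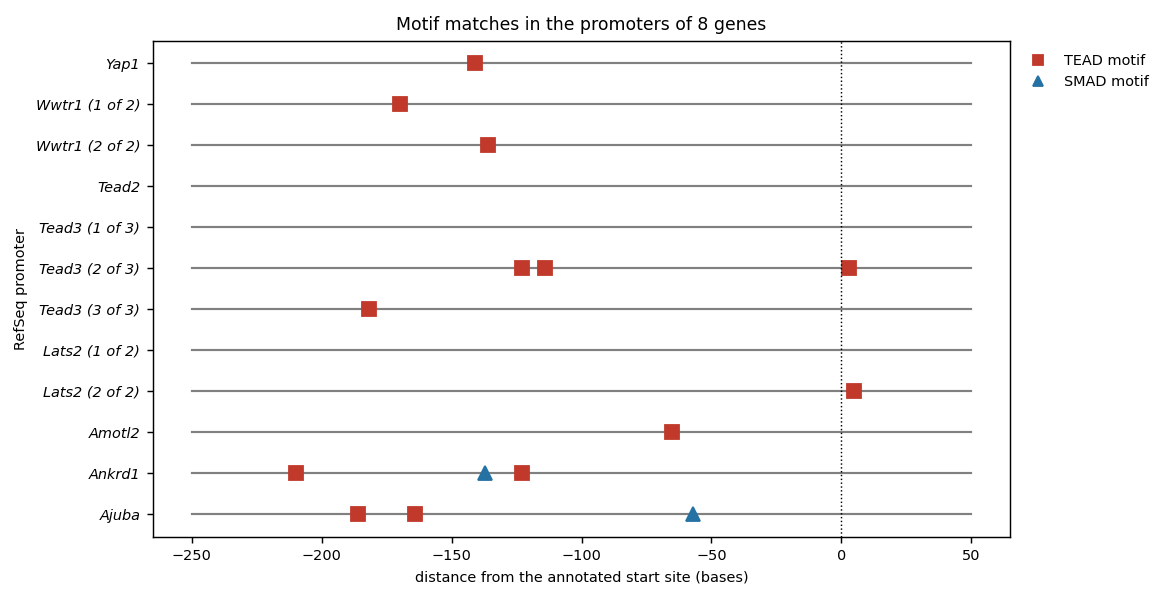
Positions of the TEAD motif (squares) and the SMAD motif (triangles) in 12 RefSeq promoters of 8 genes, with the distance from the annotated start site in bases on the x axis and each promoter as a line. The TEAD motif was present in 9 of the 12 promoters and was missing from that of Tead2 and from 1 promoter each of Lats2 and Tead3.

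In control MSCs, Ankrd1 had by far the highest level of the 10 genes, with a mean FPKM of 173 ± 0.982 (SD, n = 3). It was followed by Amotl2 at 44.5 ± 0.923 and Ajuba at 23.0 ± 0.462. Tead2 at 19.2 ± 1.26 and Yap1 at 19.2 ± 0.410 could not be ordered, since the library values of Tead2 enclosed those of Yap1. Wwtr1 at 14.6 ± 0.537 and Lats2 at 13.1 ± 2.13 overlapped as well. The remaining TEAD genes were lower, with Tead4 at 4.47 ± 0.287, Tead3 at 3.40 ± 0.332 and Tead1 at 1.17 ± 0.598. Tead3 and Tead4 did not overlap in control MSCs, where Tead4 was the higher, or with TGF-β1, where Tead3 was the higher. The exons behind these values span from 2886 bases for Ankrd1 to 13570 bases for Tead1 in the GENCODE annotation, so the low FPKM of Tead1 still rested on 816 to 2230 counts per library.

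**Figure D2:**
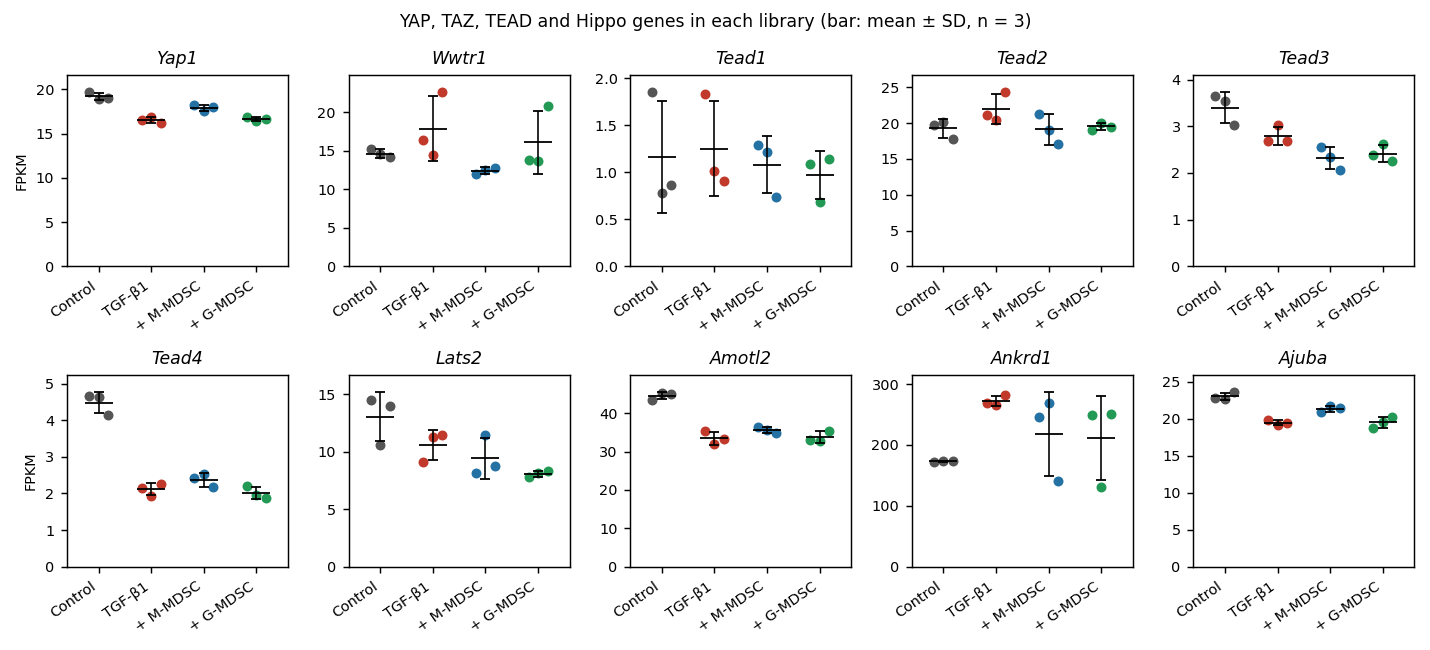
FPKM of the 10 genes in each of the 12 libraries, with a panel per gene, the 4 groups on the x axis, dots for libraries in the order of replicates 1 to 3, and bars for the mean ± SD (n = 3). Tead4, Amotl2, Ajuba and Yap1 were lower in every TGF-β1 library than in every control library, and Ankrd1 was 140 and 131 in a single library of each supernatant group.

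The comparison of TGF-β1 with control MSCs asks how these genes behave as MSCs are driven towards myofibroblasts. TGF-β1 lowered Tead4, Amotl2, Ajuba and Yap1, and none of the 10 genes rose by the test. The largest change was that of Tead4, a TEAD family transcription factor, which fell to 0.491-fold. The others fell less, to 0.783-fold for Amotl2, 0.880-fold for Ajuba and 0.894-fold for Yap1. Genes were called at an adjusted p-value under 0.05, which 4 of the 10 genes reached (4 lower, 0 higher). Over all genes tested, 34% were called in this comparison, 17.9% lower and 16.1% higher, so the share of called genes was close to the background. All 4 calls of edgeR were in 1 direction. DESeq2 called 6 of the 10 genes, with Ankrd1 and Tead2 higher, against 4370 of the 12016 genes tested.

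Tead4 had an FPKM of 4.65, 4.63 and 4.14 in the 3 control libraries and of 2.15, 1.93 and 2.25 in the TGF-β1 libraries. Every control library was far above every TGF-β1 library. The log2 fold change, the difference of the fitted log2 counts between the groups, was -1.02 ± 0.0969 (SE; 95% interval -1.24 to -0.81; edgeR adjusted p = 1.27e-05). Tead4 was the single gene of the 10 to meet the study's own rule for a changed gene, namely more than 2-fold up or less than 0.5-fold at p under 0.05 without adjustment, which 6.74% of all genes tested met. It lay close to the limit of that rule, which it missed without TGF-β1 replicate 2 (log2 fold change -0.97) and with limma on log2(FPKM + 1) (-0.82), while its adjusted p-value passed in both. Amotl2, whose protein binds YAP and TAZ, had an FPKM of 43.5, 45.2 and 44.9 in control and 35.2, 31.9 and 33.4 in TGF-β1 libraries. Its log2 fold change was -0.35 ± 0.0455 (edgeR adjusted p = 0.000134).

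Yap1 showed values of 19.7, 19.0 and 19.1 in control MSCs and of 16.5, 16.8 and 16.2 with TGF-β1. The change was small but exceeded the spread between libraries, with a log2 fold change of -0.16 ± 0.0323 (edgeR adjusted p = 0.00275). Ajuba, the LIM protein gene, had 22.8, 22.7 and 23.6 in control MSCs against 19.8, 19.2 and 19.4 with TGF-β1. Its log2 fold change was -0.18 ± 0.0390 (edgeR adjusted p = 0.00379). These 2 genes were among the most even of the data: the SD of log2 values within groups was 0.0249 for Yap1, and 0.424% of the genes tested had a smaller one, and 0.0355 for Ajuba, with 2.95% smaller. Calls of Tead4, Amotl2, Ajuba and Yap1 held in all 16 alternative analyses that give an adjusted p-value, including each left-out library, and the largest adjusted p-value among them was 0.0221, for Yap1.

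Ankrd1, a titin-binding and transcriptional regulator known as a sensitive reporter of YAP and TAZ activity, had an FPKM of 172, 174 and 173 in control MSCs and of 269, 265 and 281 with TGF-β1. The groups were widely separated and even, and the fitted difference was 1.63-fold (log2 fold change 0.71 ± 0.260), yet the gene missed the threshold (edgeR adjusted p = 0.0593). The fit takes its spread from all 12 libraries, and Ankrd1 had libraries far below their group in both supernatant groups. With only the control and TGF-β1 libraries in the fit, the edgeR adjusted p-value was 3.33e-05, and DESeq2 on all libraries gave 0.00946. Tead2 likewise did not overlap, with 19.8, 20.2 and 17.8 in control and 21.2, 20.4 and 24.3 in TGF-β1 libraries, and its log2 fold change of 0.25 ± 0.0889 missed the threshold (edgeR adjusted p = 0.0538). For Tead2, DESeq2 gave an adjusted p-value of 0.0324. With each library left out in turn, the edgeR adjusted p-value was 0.0459 without TGF-β1 replicate 2 and 0.0721 to 0.223 in the other 5 cases, and the log2 fold change was 0.16 without TGF-β1 replicate 3. In all, 6 of the 10 genes had no overlap between the control and TGF-β1 libraries, against 46.7% of all genes tested.

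Wwtr1, which encodes TAZ, had 15.2, 14.5 and 14.2 in control MSCs and 16.4, 14.5 and 22.6 with TGF-β1. TGF-β1 replicate 3 was high and the groups overlapped, with a log2 fold change of 0.34 ± 0.179 (edgeR adjusted p = 0.175) that was 0.13 without that library. For Lats2, the kinase gene, the values were 14.5, 10.6 and 14.0 in control and 9.09, 11.3 and 11.5 in TGF-β1 libraries. Its log2 fold change of -0.24 ± 0.149 did not pass (edgeR adjusted p = 0.251), and it was -0.14 without TGF-β1 replicate 1 and -0.38 without control replicate 2. Tead3 had a log2 fold change of -0.22 ± 0.103 and Tead1 of 0.16 ± 0.387, with edgeR adjusted p-values of 0.125 and 0.792. The interval for Tead1 reached from -0.70 to 1.02 and left changes of that size in either direction possible.

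The make-up of the TEAD family differed along with the fall of Tead4. The summed FPKM of the 4 TEAD genes was 28.3 ± 2.17 in control MSCs and 28.1 ± 1.92 with TGF-β1, so the total differed by less than the spread. Within that total, Tead4 accounted for 15.8% ± 0.264 (SD, n = 3) in the control group and for 7.50% ± 0.214 in the TGF-β1 group. The mean share of Tead2 was 68.1% in control MSCs, 78.0% with TGF-β1, and 76.8% and 78.3% once M-MDSC or G-MDSC supernatant was added. Each control library had a lower Tead2 share than every treated library, the highest control value being 69.2% and the lowest treated value 75.7%. The Tead4 share was 9.57% with M-MDSC and 8.07% with G-MDSC supernatant, still below all control values. The summed TEAD FPKM behind these shares was lower, at 24.9 ± 2.78 and 24.9 ± 0.292 (SD, n = 3), and all G-MDSC supernatant libraries (24.7 to 25.3) lay below every control and TGF-β1 library (25.8 or more). These shares are descriptive and were not tested separately.

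**Figure D3:**
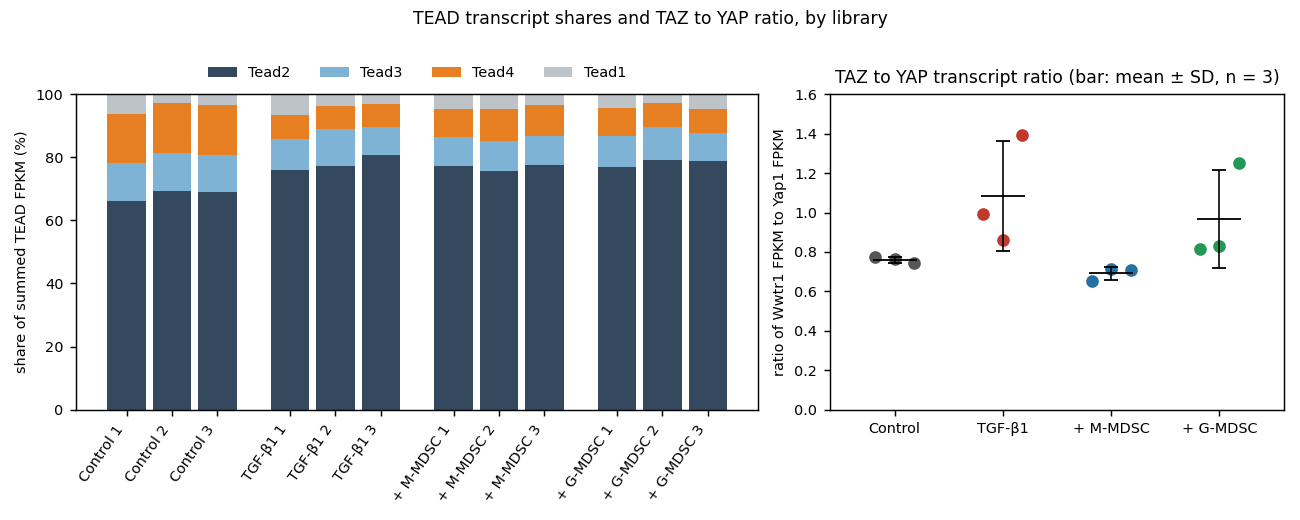
Left, share of the 4 TEAD genes in their summed FPKM (%) in each of the 12 libraries, as stacked bars. Right, ratio of Wwtr1 FPKM to Yap1 FPKM per library (dots) with the mean ± SD of each group (n = 3). The orange Tead4 part was at least 15.5% in control libraries and at most 10.1% in the others, and the ratio was high in TGF-β1 replicate 3 (1.39) and G-MDSC supernatant replicate 3 (1.25).

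The ratio of Wwtr1 to Yap1 was 0.772, 0.766 and 0.743 in control MSCs, so YAP transcripts were the more abundant of the pair. With TGF-β1 the ratio was 1.08 ± 0.278 (SD, n = 3), with every library above the controls and 1 library far above the others. It was 0.693 ± 0.0326 with M-MDSC supernatant, where all 3 libraries were below all control libraries, and 0.966 ± 0.247 with G-MDSC supernatant.

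Addition of M-MDSC supernatant to TGF-β1 asks which of these levels differ from TGF-β1 alone. Relative to TGF-β1, 0 of the 10 genes were called with edgeR, against 4.78% of all genes tested, and the smallest adjusted p-value was 0.143. At an unadjusted p-value under 0.05 there were 5, and DESeq2 called 2 of them, Yap1 and Wwtr1, against 830 of the 12016 genes tested. No share over all genes was taken for counts at an unadjusted p-value, here or below. In 4 genes the groups did not overlap, Yap1 and Ajuba with higher and Wwtr1 and Tead3 with lower values under M-MDSC supernatant, against 24% of all genes tested. Yap1 had 18.2, 17.6 and 17.98, each above the TGF-β1 libraries and below the controls, with a log2 fold change of 0.10 ± 0.0323 (edgeR adjusted p = 0.155; DESeq2 0.0483). Ajuba, with 20.9, 21.7 and 21.5, stood between the 2 groups in the same way, and its log2 fold change was 0.11 ± 0.0390 (edgeR adjusted p = 0.177).

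Of the 10 genes, Wwtr1 had the largest estimated difference under M-MDSC supernatant. Its FPKM was 11.95, 12.5 and 12.8, below every library of the control and TGF-β1 groups. Against control MSCs, the log2 fold change of Wwtr1 was -0.20 ± 0.179 and did not pass (edgeR adjusted p = 0.433). The log2 fold change of Wwtr1 against TGF-β1 was -0.54 ± 0.180 (edgeR adjusted p = 0.143; DESeq2 0.0374), and it was -0.32 without the high TGF-β1 replicate 3. Without that library the estimate for Tead1 was larger, at -0.40, so the rank of Wwtr1 rested on it. Tead3 had 2.55, 2.35 and 2.07, with a log2 fold change of -0.29 ± 0.104 (edgeR adjusted p = 0.177). Tead4, at 2.42, 2.53 and 2.17, overlapped with the TGF-β1 libraries (log2 fold change 0.14 ± 0.0965), as did Amotl2 at 36.4, 35.6 and 34.7 (0.06 ± 0.0455), with edgeR adjusted p-values of 0.50 and 0.523. Lats2 at 8.12, 11.5 and 8.76, Tead2 at 21.3, 19.0 and 17.0 and Tead1 at 1.29, 1.21 and 0.735 overlapped too.

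With G-MDSC supernatant, 0 of the 10 genes were called against TGF-β1 with edgeR or DESeq2. Over all genes tested, 5.56% were called with edgeR, and 990 of the 12016 with DESeq2. At an unadjusted p-value under 0.05 there were 2. In 4 genes the groups did not overlap, all with lower values under the supernatant (Tead2, Tead3, Lats2 and Ankrd1), against 22.7% of all genes tested. Lats2 had 7.78, 8.17 and 8.32, below every TGF-β1 library, and its log2 fold change was -0.42 ± 0.149 (edgeR adjusted p = 0.163). Yap1 at 16.9, 16.4 and 16.6 and Ajuba at 18.7, 19.6 and 20.2 lay on the TGF-β1 values. Their log2 fold changes had 95% intervals of -0.09 to 0.06 and of -0.11 to 0.06, so a return of Yap1 to its control level, 0.16 above TGF-β1 on this scale, was outside the interval. Tead4 at 2.21, 1.96 and 1.87 and Amotl2 at 33.0, 32.9 and 35.4 also overlapped with TGF-β1.

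**Figure D4:**
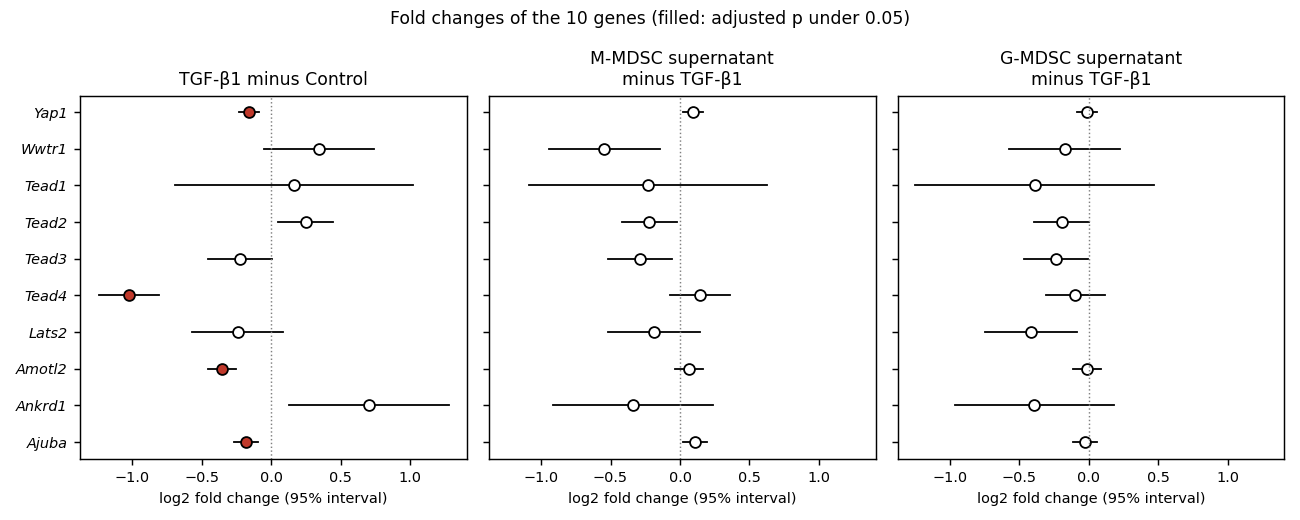
Log2 fold changes of the 10 genes with 95% intervals for TGF-β1 against control, and for M-MDSC and G-MDSC supernatant against TGF-β1 alone, from the same fit. Filled dots mark an adjusted p-value under 0.05, which 4 genes reached in the first comparison and 0 in the others.

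For the 4 genes that TGF-β1 lowered, the distance between the TGF-β1 and control means of the deposited FPKM can be used as a scale. The mean under M-MDSC supernatant had moved back by 52.0% of that distance for Yap1, 52.3% for Ajuba, 19.0% for Amotl2 and 11.04% for Tead4. The Amotl2 and Tead4 percentages depend on single libraries, since the log2 difference from TGF-β1 behind them ranged from 0.032 to 0.10 for Amotl2 and from 0.085 to 0.21 for Tead4 when 1 library at a time was left out. Under G-MDSC supernatant the means stayed near those of TGF-β1, with estimated log2 differences from TGF-β1 of -0.01 for Yap1, -0.02 for Ajuba, -0.01 for Amotl2 and -0.10 for Tead4, and the sign of the first 3 depended on the scaling and on single libraries. The comparisons share the TGF-β1 libraries, and these percentages carry no test. When the supernatants were compared directly, 0 of the 10 genes were called with edgeR, against 0.125% of all genes tested. DESeq2 called 0 of the 10 as well, against 121 of the 12016, and 3 of the 10 had an unadjusted p-value under 0.05. The 3 genes without overlap were Yap1 and Ajuba, higher with M-MDSC supernatant, and Wwtr1, lower with it, against 12% of all genes tested. Yap1 differed by 0.11 ± 0.0323 and Ajuba by 0.13 ± 0.0390 on the log2 scale (edgeR adjusted p = 0.443 and 0.433).

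Set against control MSCs, the supernatant groups remained below the control level in several of the genes. With M-MDSC supernatant, 4 genes were called, all lower: Tead4 (log2 fold change -0.88 ± 0.0966), Tead3 (-0.51 ± 0.104), Lats2 (-0.43 ± 0.149) and Amotl2 (-0.29 ± 0.0455). The background was 35.2% of all genes tested. The call of Lats2 had an edgeR adjusted p-value of 0.0456 and was kept in 7 of 16 alternative analyses. With G-MDSC supernatant, 6 genes were called, all lower, against 34.8% of all genes tested. They were Tead4 (-1.12 ± 0.0971), Lats2 (-0.66 ± 0.149), Tead3 (-0.46 ± 0.104), Amotl2 (-0.37 ± 0.0455), Ajuba (-0.21 ± 0.0390) and Yap1 (-0.18 ± 0.0323), and each was called in all 16 alternatives. Tead3 and Lats2 were thus called against control MSCs in both supernatant groups but not with TGF-β1 alone, and their differences from TGF-β1 alone did not pass the test.

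Some of the genes were uneven among libraries that carry the same label. Ankrd1 had an FPKM of 245, 269 and 140 in the TGF-β1/M-MDSC sup libraries and of 249.5, 131 and 252 in the TGF-β1/G-MDSC sup libraries. A single library in each group had an Ankrd1 level below that of the control MSCs, while the others were at 245 or above. The log2 fold change of Ankrd1 against TGF-β1 was -0.34 ± 0.259 with M-MDSC supernatant and -0.10 without replicate 3, and it was -0.39 ± 0.259 with G-MDSC supernatant and -0.14 without replicate 2. The SD of log2 values within groups was 0.369 for Ankrd1, larger than in 94.0% of all genes tested, although the gene had 33311 to 72636 counts per library. It was 0.283 for Tead1 (larger than in 90.0%), 0.229 for Wwtr1 (85.6%) and 0.187 for Lats2 (80.5%). Tead1 was high in control replicate 1 (1.85 against 0.780 and 0.862) and in TGF-β1 replicate 1 (1.83 against 1.02 and 0.911), and Wwtr1 was high in replicate 3 of the TGF-β1 and G-MDSC supernatant groups (22.6 and 20.8).

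Between 132 and 185 of the 12016 genes tested in each library were below 0.6 of both other libraries of the group, with 153 and 177 in the libraries where Ankrd1 was low. Counted the other way, M-MDSC supernatant replicate 3, where Ankrd1 was 140, stood apart, with 190 genes for which both other libraries were under 0.6 of it, against 90 to 143 in the other 11 libraries. Other genes that overlap the 10 genes on the genome had at most 136 counts in any library.

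Other components of the Hippo pathway moved in both directions with TGF-β1. Of 32 further pathway genes, 26 were tested, and 7 rose and 4 fell, against a background of 16.1% higher and 17.9% lower over all genes tested. The median log2 fold change was 0.02 against 0.00048 over all genes. Frmd6, an upstream FERM protein, rose from 13.3 ± 0.813 to 22.8 ± 0.695 FPKM (SD, n = 3), or by 0.84 ± 0.0511 on the log2 scale (edgeR adjusted p = 4.25e-07). The scaffold gene Wwc2 rose from 11.2 ± 0.676 to 17.3 ± 0.158 (0.69 ± 0.0574), and the kinase Lats1 from 9.26 ± 0.817 to 12.2 ± 1.604 (0.46 ± 0.0944; edgeR adjusted p = 0.00336). Its paralog Lats2 did not pass in this comparison, and whether the 2 changes differ was not tested. Among the 4 genes that fell were the angiomotin gene Amot, from 3.95 ± 0.470 to 2.40 ± 0.213 (-0.66 ± 0.120), and the kinase gene Map4k2, from 1.38 ± 0.320 to 0.694 ± 0.0311 (-0.93 ± 0.169). Map4k2 reached an FPKM of 1 in the 3 control libraries and in a single other library, so it entered the test through the group in which it was high, and its fall is given as a value only and lends no support to the count. The other 2 were the MST kinase gene Stk3 and its scaffold Sav1, named here because they complete the count. In the comparisons of supernatant with TGF-β1, edgeR called 0 of the 26 with either supernatant, against 4.78% (M-MDSC) and 5.56% (G-MDSC) of all genes tested. DESeq2 called 2 with each, against 830 and 990 of the 12016 genes tested. At an unadjusted p-value under 0.05 there were 6 with M-MDSC and 5 with G-MDSC supernatant. Without TGF-β1 replicate 1, edgeR called 1 of the 26 with either supernatant, against 402 (M-MDSC) and 503 (G-MDSC) of the 11974 genes tested. Without G-MDSC supernatant replicate 3 it called 2 with that supernatant, against 573 of 11966.

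Genes that are used in other cells as YAP and TAZ targets also split. Of 19 such genes, 18 were tested (Igfbp3 was too low), and with TGF-β1 8 rose and 6 fell, a median log2 fold change of 0.04. Over all genes tested, 34% were called in this comparison. Ccn2, the matricellular factor CTGF and also a gene that the study displayed as a myofibroblast marker, had 264 ± 15.1 FPKM in control MSCs and 1468 ± 76.4 with TGF-β1, a log2 fold change of 2.53 ± 0.0553 (edgeR adjusted p = 5.63e-10). Nt5e (CD73), Nuak2 and Gadd45b rose by 1.35 ± 0.139, 1.33 ± 0.0556 and 1.28 ± 0.0555 on the log2 scale. Nt5e stayed below an FPKM of 1 in every control library and entered the test through treated libraries, where it was high, so its values are a description and lend no support to the counts. Ccn1, the close relative CYR61, rose less, from 448 ± 27.6 to 514 ± 6.47 FPKM (0.26 ± 0.0438; edgeR adjusted p = 0.000944). Of the 6 genes that fell, Asap1 had the largest change, from 28.1 ± 0.304 to 17.8 ± 0.775 FPKM (-0.60 ± 0.0590, edgeR adjusted p = 1.66e-05). Crim1 was also among them and fell from 34.8 ± 1.12 to 27.7 ± 1.21 (-0.28 ± 0.0568).

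With the supernatants, a few of these targets differed from TGF-β1 alone. With M-MDSC supernatant 1 of the 18 was called, close to the background of 4.78%. It was Ccn1, which fell to 444 ± 6.30 FPKM (log2 fold change -0.24 ± 0.0438; edgeR adjusted p = 0.0109), a mean within the range of the controls. That call was lost without TGF-β1 replicate 3 or without M-MDSC supernatant replicate 2. With G-MDSC supernatant 4 of the 18 were called, against 5.56% of all genes tested, and 2 without TGF-β1 replicate 3. Ccn1 fell to 418 ± 13.6 FPKM (-0.33 ± 0.0438; edgeR adjusted p = 0.00123), Ccn2 to 1234 ± 36.4 (-0.28 ± 0.0522; edgeR adjusted p = 0.00997) and Crim1 to 21.6 ± 1.63 (-0.38 ± 0.0569; edgeR adjusted p = 0.00243). Ccn1 and Ccn2 thus ran against their change with TGF-β1, whereas Crim1 and Nt5e moved further along it. The fourth, Nt5e, was at 1.00 ± 0.0533 with TGF-β1 and at 1.65 ± 0.0215 with G-MDSC supernatant, and as it reached an FPKM of 1 in 1 TGF-β1 library it entered the test mainly through the supernatant libraries and lends no support to this count either. Ccn2 with M-MDSC supernatant was 1301 ± 46.8, a log2 fold change of -0.20 ± 0.0522 that did not pass (edgeR adjusted p = 0.0647). Between the supernatants edgeR called 0 of the 18, against 0.125% of all genes tested. DESeq2 called 0 as well, against 121 of the 12016, and 3 had an unadjusted p-value under 0.05.

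**Figure D5:**
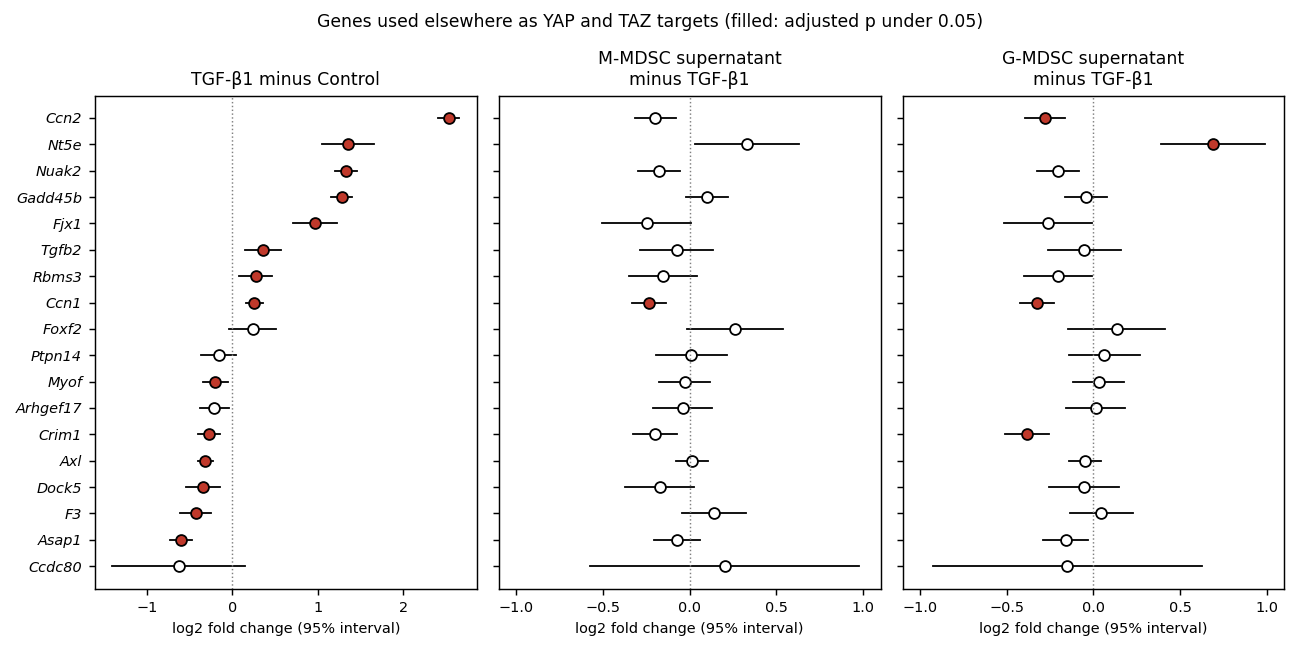
Log2 fold changes with 95% intervals of 18 genes used in other cells as YAP and TAZ targets, ordered by their change with TGF-β1, for TGF-β1 against control and for each supernatant against TGF-β1. Filled dots mark an adjusted p-value under 0.05, 14 in the first panel, 1 in the second and 4 in the last, and the first panel has a wider x axis than the other panels.

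Contractility, SRF and focal adhesion genes belong to the same mechanical response. Of 18 such genes, all tested, 6 rose and 2 fell with TGF-β1, against 34% of all genes tested that were called, and the median log2 fold change was 0.11. Without control replicate 3, 5 of the 18 were called. Mrtfa, the co-activator of SRF, had a log2 fold change of 0.71 ± 0.158 (edgeR adjusted p = 0.00513), and Srf itself rose from 38.5 ± 3.17 to 48.2 ± 1.96 FPKM (0.38 ± 0.0599). Arhgef2, an activator of RhoA, rose by 0.57 ± 0.0580, and the focal adhesion gene Zyx, a LIM protein gene like Ajuba, fell from 237 ± 13.1 to 164 ± 11.3 FPKM (-0.48 ± 0.115; edgeR adjusted p = 0.00810). With the supernatants edgeR called 0 of the 18 against TGF-β1, beside 4.78% (M-MDSC) and 5.56% (G-MDSC) of all genes tested. DESeq2 called 1 with each, beside 830 and 990 of the 12016 genes. At an unadjusted p-value under 0.05 there were 4 with M-MDSC and 5 with G-MDSC supernatant. Without G-MDSC supernatant replicate 3, edgeR called 1 with that supernatant, beside 573 of 11966.

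The genes whose levels ran most closely with each of the 10 were found by Pearson's r of log2(FPKM + 1) over the 12 libraries, which share the 4 treatments, and are given as a description. Tead4 ran with Stub1 (0.986), Fzd8 (0.984) and Il17rc (0.982), and Fzd8 fell from a mean FPKM of 5.45 to 2.51 with TGF-β1. Amotl2 ran with Myo18a (0.976), Axl (0.972) and Aff3 (0.971), of which Axl is among the target genes counted above. Ajuba ran with Pknox2 (0.930), Casp12 (0.925) and Zyx (0.921), and Yap1 with Hexa (0.946), Bbs9 (0.943) and Midn (0.932). For the genes that were uneven among libraries, the closest was Brms1 for Ankrd1 (0.887), Zranb2 for Tead1 (0.916), Ap1ar for Wwtr1 (0.902) and Lbr for Lats2 (0.936). Tead3 ran with Ptprm (0.955) and Tead2 with Wdr54 (0.911).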

How the data were processed

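Poly(A) RNA was turned into dUTP libraries and sequenced as paired ends. Read quality was examined by the authors with fastp, HISAT2 was used for alignment to GRCm38 and StringTie for assembly, and the submitters' processing notes name cutadapt 1.9, HISAT2 2.0.4 and StringTie 1.3.4d. The deposited table gives raw counts per gene and library (counting tool and strand setting: not given in the sources used here) beside FPKM values that the authors computed, with 0.0001 standing for a count of 0. Small counts were often multiples of 4 (44.3% of the counts from 1 to 12), and counts divided by 4 were therefore tried as an alternative.

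Genes entered the test at FPKM 1 or above in 3 or more libraries. After TMM scaling (factors 0.978 to 1.03) the counts of all 4 groups were fitted together in edgeR 4.0.16 (R 4.3.3), tested with its quasi-likelihood F test and adjusted (Benjamini-Hochberg) across every gene tested. Standard errors were derived from the F statistic. Alternatives were DESeq2 1.42.0, limma 3.58.1 on log2(FPKM + 1) and log2(FPKM + 0.1), other scalings and filters, pairs of groups alone, a replicate block and each library left out. The analysis was tested on simulated data. With 3 libraries against 3, an exact permutation test of a single gene cannot go below p = 0.1 and was not used.

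The 10 genes and the lists of further genes were chosen with earlier results of these data known, and lists are described by counts only. Named beside the 10 genes were Ccn1, Ccn2 and Lats1, the 4 called genes with the largest change in each list and comparison, and genes that complete a small count or ran most closely with a member. Asap1 was named as the called target gene that fell most with TGF-β1. Promoter sequences came from RefSeq (GRCm38.p6). Figures were drawn with matplotlib 3.10.9.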

Additional observations from a re-analysis of the deposited data

How the results depend on the processing

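Over 22 alternative analyses, of which 16 applied to each comparison, 960 log2 fold changes of the 10 genes were recomputed. Of these, 900 were on the same side of the threshold and of 0, 13 newly past it, 9 no longer past it and 38 with another sign. Every change of sign concerned a difference that passed the threshold in neither analysis, and the cause was not tested. The median log2 fold change of all genes moved by at most 0.058 under other scalings.

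With G-MDSC supernatant against TGF-β1, log2 fold changes near 0 turned positive with library totals without scaling factors and with limma at a pseudocount of 1 or 0.1, being 0.0027, 0.00063 and 0.00063 for Ajuba, 0.013, 0.012 and 0.012 for Amotl2, and 0.013, 0.011 and 0.011 for Yap1. With M-MDSC supernatant against control, the same analyses gave -0.012, -0.012 and -0.013 for Tead2, and the replicate block gave 0.016 for Tead1.

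Without 1 library at a time, differences of Tead1 ranged from -0.21 to 0.64 for TGF-β1 against control, from -0.40 to 0.14 for M-MDSC supernatant against TGF-β1, from -0.043 to 0.37 between the supernatants, and from -0.29 to 0.42 and from -0.45 to 0.27 for M-MDSC and G-MDSC supernatant against control. Those of Tead2 ranged from -0.11 to 0.051 between the supernatants, and from -0.060 to 0.10 and from -0.0073 to 0.091 against control in the same order. For G-MDSC supernatant against TGF-β1 the ranges were -0.40 to 0.048 for Wwtr1, -0.026 to 0.00088 for Yap1, -0.051 to 0.023 for Amotl2 and -0.054 to 0.0042 for Ajuba. Wwtr1 ranged from -0.061 to 0.28 for G-MDSC supernatant against control, and between the supernatants Tead3 ranged from -0.13 to 0.026 and Ankrd1 from -0.20 to 0.29.

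The study's rule in place of the adjusted p-value called 1, 0 and 1 of the 10 genes for TGF-β1, M-MDSC and G-MDSC supernatant against control. With TGF-β1 it called 0 Hippo, 4 target and 0 actin genes, against 6.74% of all genes tested, and 0 target genes with either supernatant against TGF-β1. DESeq2 called, for M-MDSC supernatant against TGF-β1, 2 of the 10 genes, 2 Hippo, 2 target and 1 actin genes, and for G-MDSC supernatant 2 Hippo and 1 actin genes. Of all 12016 genes tested, DESeq2 called 830 with M-MDSC and 990 with G-MDSC supernatant. Without the filter on FPKM, 5 actin genes were called with TGF-β1, and without 1 library at a time from 5 to 8. Of all genes, 4181 of 28622 were called without the filter, and from 3374 to 3696 without 1 library. Counts without 1 library ranged from 0 to 1 (M-MDSC) and 0 to 2 (G-MDSC) for Hippo genes, from 0 to 1 (M-MDSC) and 2 to 6 (G-MDSC) for target genes and from 0 to 1 (G-MDSC) for actin genes, all against TGF-β1. Of the 11966 to 11990 genes tested in these fits, 359 to 453 (M-MDSC) and 452 to 573 (G-MDSC) were called. The most target genes, 6, were called without G-MDSC supernatant replicate 3 and the fewest, 2, without TGF-β1 replicate 3.

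No pairing by replicate number was seen in the average over all genes tested. The correlation of deviations from the group means averaged -0.000255 over 18 pairs with the same number and 0.000144 over 36 pairs with different numbers. Single pairs ranged from -0.105 to 0.0743 and from -0.135 to 0.168. The labels do not say whether equal numbers mark a shared batch, and a batch that acts on some genes only was not tested. With the replicate number as a block, 4 of the 10 genes were called with TGF-β1, against 3932 of the 12016 genes tested. Under the same block, 2 target genes were called with M-MDSC supernatant against TGF-β1, beside 461 of the 12016. For M-MDSC supernatant against control the block called 3 of the 10 genes, without Lats2, and no share over all genes was taken. At 3 libraries a group, differences of uneven genes such as Tead1 and Ankrd1 were estimated with wide intervals.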
